A study of Gallus gallus with 5 samples.

Results

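The genes described here are 31 of the 11476 listed for preoptic area and anterior hypothalamus (PO/AH) of broiler chicks, and their transcript levels varied together across the libraries. They were chosen by their measured levels, as the genes that followed the abundant transcript ENSGALG00000032456.1. A gene was taken when its mean level was at least 20 CPM (its count per 1000000 counts of the library) and its highest library stood at least 2-fold above its lowest, with a lowest level under 1 CPM set to 1. Its log2(CPM + 0.5) also had to correlate with that of ENSGALG00000032456.1 at a Pearson r of at least 0.9 over 5 libraries. Mitochondrially encoded transcripts, 4 in number, were left out. Since the same values chose the genes, their co-variation, their ranges and their correlations are a description, and no test is attached to them.

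Messenger RNA was counted by bulk MARS-seq, which sequences the 3′ ends of polyadenylated transcripts and tags each molecule, so that its amplified copies count once. All 5 libraries belonged to 1 group. They came from whole-tissue lysate of PO/AH of Cobb strain chicks raised at 30°C, on day 3 after hatching, given gga-miR-210a-3p (a mimic, injected into that region) and sampled 6 h later. The libraries are named by the numbers in their titles, which are 1, 2, 6, 9 and 10. Naive chicks, against which the series set the injected ones, were not analysed here, so no value below is an effect of the mimic. Nothing in the labels says that each library is a separate animal, and the spread between libraries may therefore be technical. In whole tissue, fewer cells of a type and less RNA per cell cannot be told apart.

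The PO/AH is the part of the brain that senses and sets body temperature. A microRNA mimic is a double-stranded RNA that stands in for the mature microRNA, and miR-210 is best known as a microRNA induced by low oxygen. A microRNA acts by pairing with messenger RNAs, mostly in their 3′ untranslated regions, and lowers their level or translation.

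Gene identity is limited to versioned Ensembl IDs. The name column of the deposited table repeats the ID in every row, and the RefSeq gene table of assembly GRCg7b lists an Ensembl ID for 0 of its genes, so the IDs could not be looked up in it. No symbol, function, position or sequence is therefore given for the 31. The ID versions, which the rule did not use, were 1 for 13 of the 31 genes (41.9%). The share was 24.8% over the 468 genes that met the level and range limits, which include the 31. Over the 4731 genes of at least 20 CPM it was 16.9%, and the difference between these shares was not tested. An ID version of 1 means that the gene model has not been revised since the ID was made.

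Library totals ran from 3446463 counts in library 1 to 5445181 in library 10, with a mean of 4215142 ± 795310 (SD, n = 5). Among the 468 genes that met the level and range limits, library 1, the shallowest, held the highest level of 154 (32.9%). Library 10, the deepest, held that of 153, and libraries 2, 6 and 9 held 49 to 58 each. Because library 1 was the highest for nearly all of the 31 genes, the main values are also given without it.

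ENSGALG00000032456.1 stood at 10299 CPM in library 1, 2996 in library 2, 1322 in library 6, 1679 in library 9 and 4299 in library 10. Its mean was 4119 ± 3649 CPM (SD, n = 5), the 16th highest among all genes. Library 1 was far above the others, library 10 came next and library 6 was lowest, a 7.79-fold range. The transcript ranked 7th among all genes in library 1 and 120th in library 6. These levels rest on 35495 counts in library 1 and 5123 counts in library 6, so counting error in the lowest library was 1.40%. Without library 1 the mean was 2574 CPM and the range 3.25-fold.

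Of the genes that met the level and range limits, the 31 that met the correlation limit were 6.62%, and they were 0.27% of all genes listed. The opposite correlation, an r of at most -0.9, was met by 4 genes (0.855%). With DESeq2 size factors in place of library totals it was met by 9, and without library 10 by 24. The level and range limits were themselves met by 9.89% of the 4731 genes of at least 20 CPM. The median r to ENSGALG00000032456.1 over the 468 genes was 0.0714, with 246 of them (52.6%) above 0. These shares describe the rule and carry no test.

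**Figure D1:**
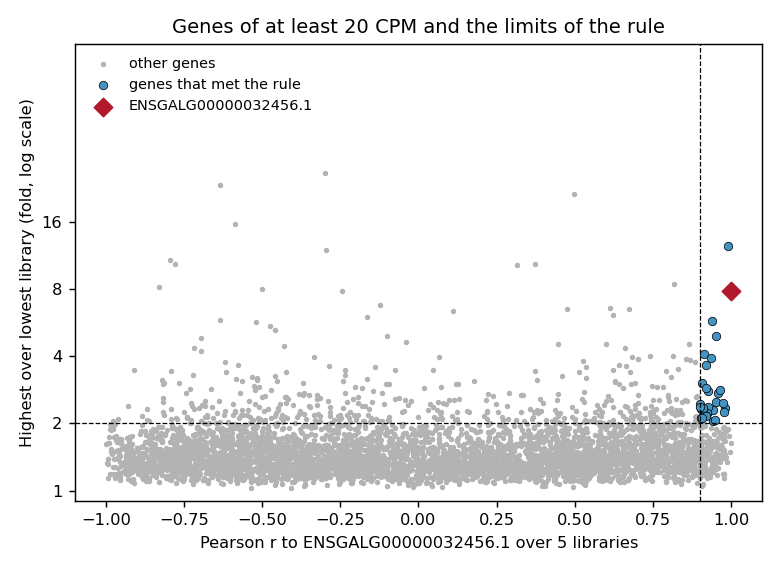
Each point is a gene of at least 20 CPM. The x axis is its Pearson r to ENSGALG00000032456.1 over 5 libraries, and the y axis is the ratio of its highest to its lowest library on a log scale. Dashed lines mark the limits of 0.9 and 2-fold. The 31 genes that met the rule lie at the upper right, with most of them between 2-fold and 2.5-fold.

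Together the 31 genes took 1.63% of the counts of library 1, 0.650% of library 2, 0.372% of library 6, 0.432% of library 9 and 0.823% of library 10. Summed levels ran from 16297 CPM in library 1 to 3716 in library 6, a 4.39-fold range, with a mean of 7814 ± 5070 CPM (SD, n = 5). ENSGALG00000032456.1 supplied 63.2% of this sum in library 1 and 35.6% in library 6. The other 30 genes alone summed to 5998 CPM in library 1, 3508 in library 2, 2394 in library 6, 2645 in library 9 and 3928 in library 10. Their order of libraries was that of ENSGALG00000032456.1, over a narrower, 2.51-fold range. Scaling by library total lets the 31 genes lower every other gene's CPM, by a factor that differs little between libraries: leaving the 31 out of the totals would raise other genes by 1.66% in library 1 and by 0.373% in library 6.

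**Figure D2:**
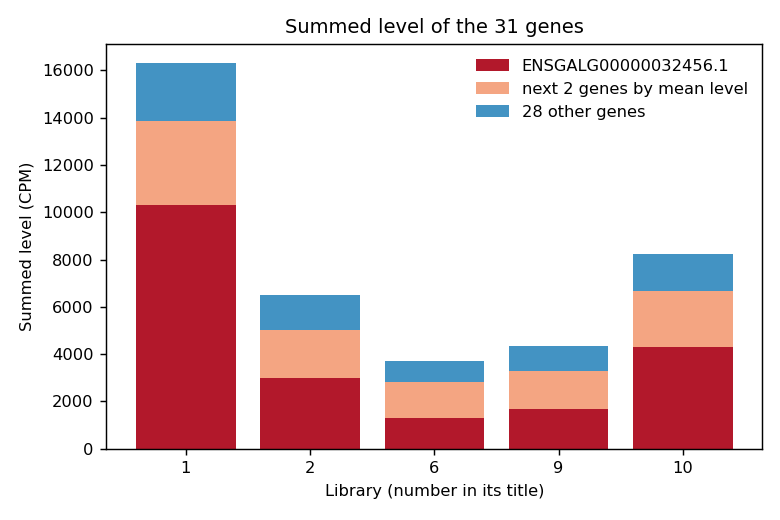
Bars give the summed level of the 31 genes in CPM in each of the 5 libraries, split into ENSGALG00000032456.1, the next 2 genes by mean level and the 28 other genes. The sum reaches 16297 CPM in library 1 and is lowest, at 3716 CPM, in library 6.

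The 2 next most abundant genes were ENSGALG00000037805.1 and ENSGALG00000003589.6, the only others with means above 1000 CPM. ENSGALG00000037805.1 had 1851 CPM in library 1, 962 in library 2, 659 in library 6, 945 in library 9 and 1199 in library 10. It was highest in library 1 and lowest in library 6, a 2.81-fold range, and libraries 2 and 9 were close to each other. ENSGALG00000003589.6 had 1701 CPM in library 1, 1081 in library 2, 825 in library 6, 681 in library 9 and 1151 in library 10. Here library 9 and not library 6 was the lowest, and the range was smaller than in ENSGALG00000037805.1. The means were 1123 ± 450 CPM for ENSGALG00000037805.1 and 1088 ± 392 CPM for ENSGALG00000003589.6 (SD, n = 5 each).

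Only 1 gene varied more steeply than ENSGALG00000032456.1. ENSGALG00000006771.5 had 299.7 CPM in library 1, 63.8 in library 2, 24.0 in library 6, 38.5 in library 9 and 81.2 in library 10. The order of its libraries was that of ENSGALG00000032456.1, and its range was 12.5-fold, from 1033 counts in library 1 to 93 counts in library 6. Its r to ENSGALG00000032456.1, 0.990, was the highest of the other 30 genes. On the log2 scale it changed by 1.15 for each unit of change in ENSGALG00000032456.1, against a median of 0.41 over the 30 genes and a lowest slope of 0.33.

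Ranges over 4-fold were reached by 5 genes, which were the 2 steepest genes already given and ENSGALG00000036962.1, ENSGALG00000029664.2 and ENSGALG00000032257.2. No share of the 468 genes that met the level and range limits is given for ranges over 4-fold, so the 5 are not set against a background. ENSGALG00000036962.1 had 93.1 CPM in library 1, 39.0 in library 2, 16.3 in library 6, 33.7 in library 9 and 67.8 in library 10, a 5.73-fold range. ENSGALG00000029664.2 had 112 CPM in library 1, 60.3 in library 2, 22.7 in library 6, 36.5 in library 9 and 87.6 in library 10, a 4.92-fold range. In both genes library 10 came nearer to library 1 than it did in ENSGALG00000032456.1. ENSGALG00000032257.2 had 151 CPM in library 1, 103 in library 2, 45.9 in library 6, 36.8 in library 9 and 88.0 in library 10, a 4.11-fold range. It differed in order, with library 2 above library 10 and library 9 below library 6. The sixth range by size, 3.91-fold, was that of ENSGALG00000039436.1, at 44.4 CPM in library 1 and 11.4 in library 6. It rests on 153 counts in library 1 and 44 counts in library 6.

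Most of the set was less abundant and varied less. Means were under 100 CPM for 23 genes, and 17 of these were under 50 CPM. The median of the means was 44.1 CPM, close to the 40.1 CPM of the 468 genes that met the level and range limits. Ranges were under 2.5-fold for 19 genes and between 2.5-fold and 4-fold for 7. These counts of levels and ranges have no share of the 468 genes beside them. The median range was 2.36-fold, close to the 2.32-fold median of the 468 genes that met the same limit. The 5 genes of 100 CPM to 200 CPM were ENSGALG00000006409.5, ENSGALG00000042730.2, ENSGALG00000037029.1, ENSGALG00000039756.1 and ENSGALG00000006771.5. Apart from the last of these, their means lay between 103 CPM and 127 CPM and their ranges between 2.16-fold and 2.36-fold. ENSGALG00000042730.2 had 169 CPM in library 1, 98.6 in library 2, 75.1 in library 6, 75.7 in library 9 and 136 in library 10.

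Library 1 was the highest library for 30 of the 31 genes, where the background among the 468 genes was 32.9%. The exception, ENSGALG00000009545.6, had 86.8 CPM in library 1 and 90.4 in library 10, on 299 and 492 counts. The lowest library was library 6 for 23 genes (background 25%) and library 9 for 8 (background 15.8%). In 30 of the 31 genes, libraries 1, 2 and 10 all stood above both library 6 and library 9, an order seen in 12.6% of the 468 genes. The exception was ENSGALG00000016781.5, at 18.9 CPM in library 9 and 18.3 in library 2. These orders follow largely from the correlation limit and are read as a description of what the limit selected.

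**Figure D3:**
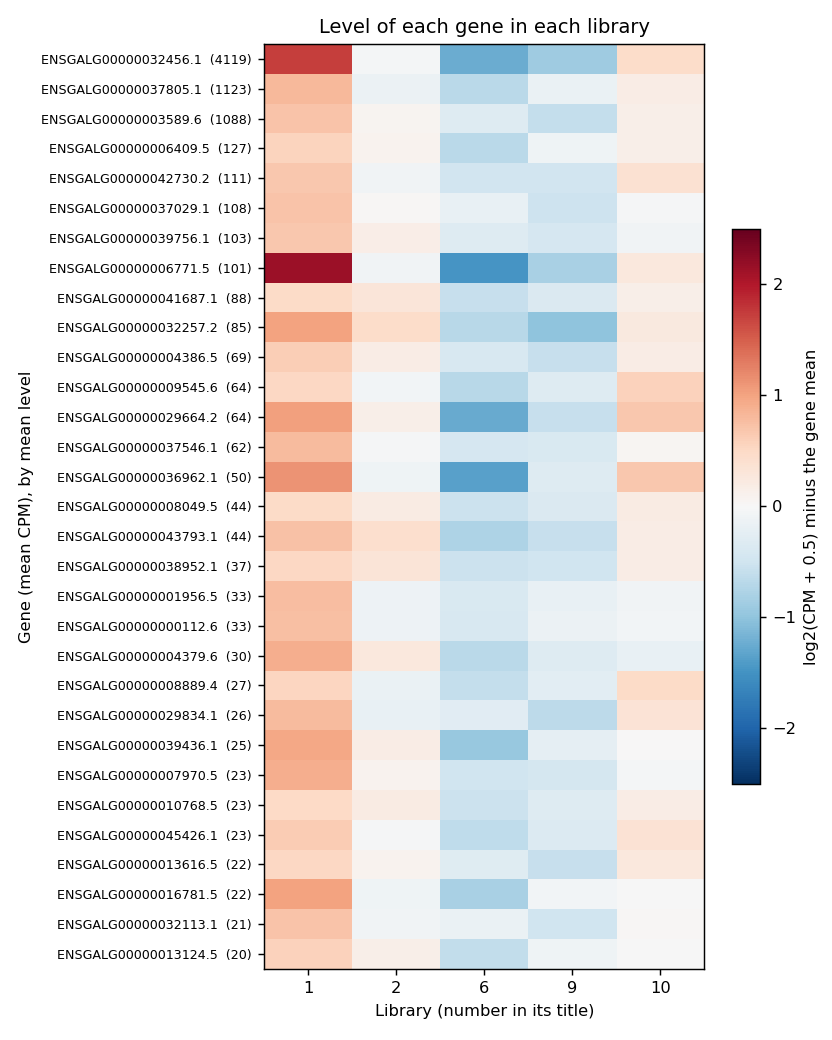
Rows are the 31 genes in order of mean level, given in CPM in brackets, and columns are the 5 libraries. Colour is log2(CPM + 0.5) minus the mean of the gene over the libraries. Library 1 is red in every row, libraries 6 and 9 run from near white to blue, and ENSGALG00000032456.1 and ENSGALG00000006771.5 have the strongest colours.

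The genes differed among themselves in how they placed libraries 2 and 10. Library 10 was above library 2 in 18 genes, by more than 2 counting standard errors in 11. The ratio of library 10 to library 2 was 1.74 in ENSGALG00000036962.1, 1.57 in ENSGALG00000009545.6 and 1.43 in ENSGALG00000032456.1. Library 2 was above library 10 in the other 13, by more than 2 counting standard errors in 3. In these 3 the ratio was 0.736 for ENSGALG00000004379.6, 0.845 for ENSGALG00000039756.1 and 0.851 for ENSGALG00000032257.2. Libraries 6 and 9 also divided the set, with library 9 above library 6 beyond 2 counting standard errors in 10 genes and below it in 3, which were ENSGALG00000003589.6, ENSGALG00000037029.1 and ENSGALG00000032257.2. The full order of ENSGALG00000032456.1 (libraries 1, 10, 2, 9, 6) was shared by 12 of the 31 genes, that gene included. No share of the 468 genes stands beside the counts in this paragraph, so they describe the 31 genes alone. Counting standard errors leave out differences between tissue samples, so they bound the precision of single libraries only.

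The lowest count of any of the 31 genes in any library was 43, a counting error of 15.2%. The SD between libraries, which the 2-fold limit keeps from being small, ran from 28.6% to 111% of the mean. In some of the weakest genes counting error came nearer to it but stayed well below it. ENSGALG00000010768.5 had 13.1% in its lowest library against an SD of 28.6%, and ENSGALG00000013124.5 had 14.3% against 29.8%. The spread beyond counting error, measured as described below, was 0.232 in ENSGALG00000010768.5 and 0.235 in ENSGALG00000013124.5. The ratio of library 1 to library 6 ran from 1.78-fold to 12.5-fold over the 31 genes with a median of 2.32-fold, which the rule itself largely fixes. The median ratio of library 1 to library 6 was 1.03 over the 468 genes and 0.989 over the 4731 genes of at least 20 CPM. Beyond counting error, the relative spread estimated by edgeR (biological coefficient of variation, BCV) had a median of 0.255 over the 31 genes. It was 0.253 over the 468 genes and 0.175 over all 7503 genes fitted. The fit draws the BCV of each gene toward that of other genes, which narrows the differences between genes. The highest BCVs were 0.616 for ENSGALG00000006771.5 and 0.522 for ENSGALG00000032456.1, and the lowest of the 31 was 0.224 for ENSGALG00000006409.5. By comparison, the SD was 111% of the mean in ENSGALG00000006771.5 and 88.6% in ENSGALG00000032456.1. The medians of the 31 and of the 468 genes were nearly equal. Both lay above that of all genes, which follows largely from the 2-fold limit that both sets had met.

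The set rests in part on single libraries, and how far it rests on library 1 differed by gene. Over the other 4 libraries, 11 of the 31 genes kept a 2-fold range and 13 of the 30 genes beside ENSGALG00000032456.1 kept an r of at least 0.9. Of the 468 genes, 26 (5.56%) reached that r over the same 4 libraries, with ENSGALG00000032456.1 and the 13 among them. The 30 genes had been chosen by an r that included these 4 libraries, so a larger share among them follows largely from the rule. No share of the 468 genes is given for the 2-fold range, so the 11 genes are not set against a background. Both limits were met by 7 of the 30, for which no share of the 468 genes is given either. Applied afresh to the 4 libraries, with the 20 CPM limit, the rule took 15 genes, of which 7 were among the 31. These 7 include ENSGALG00000032456.1 and lack ENSGALG00000045426.1, which met both other limits but averaged under 20 CPM over the 4 libraries. Without library 6 the rule took 24 genes, of which 15 were among the 31, and without library 9 it took 71, of which 25 were. The largest ranges without library 1 were those of ENSGALG00000036962.1 at 4.17-fold, ENSGALG00000029664.2 at 3.86-fold, ENSGALG00000006771.5 at 3.38-fold and ENSGALG00000032456.1 at 3.25-fold. In contrast, ENSGALG00000001956.5 spanned 2.25-fold with library 1 and 1.23-fold without it, and ENSGALG00000000112.6 spanned 2.24-fold with it and 1.27-fold without it. With all libraries thinned to equal totals, which evens out the counts alone, the rule took 27 genes, 26 of them among the 31. Other properties of library 1 were not tested.

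**Figure D4:**
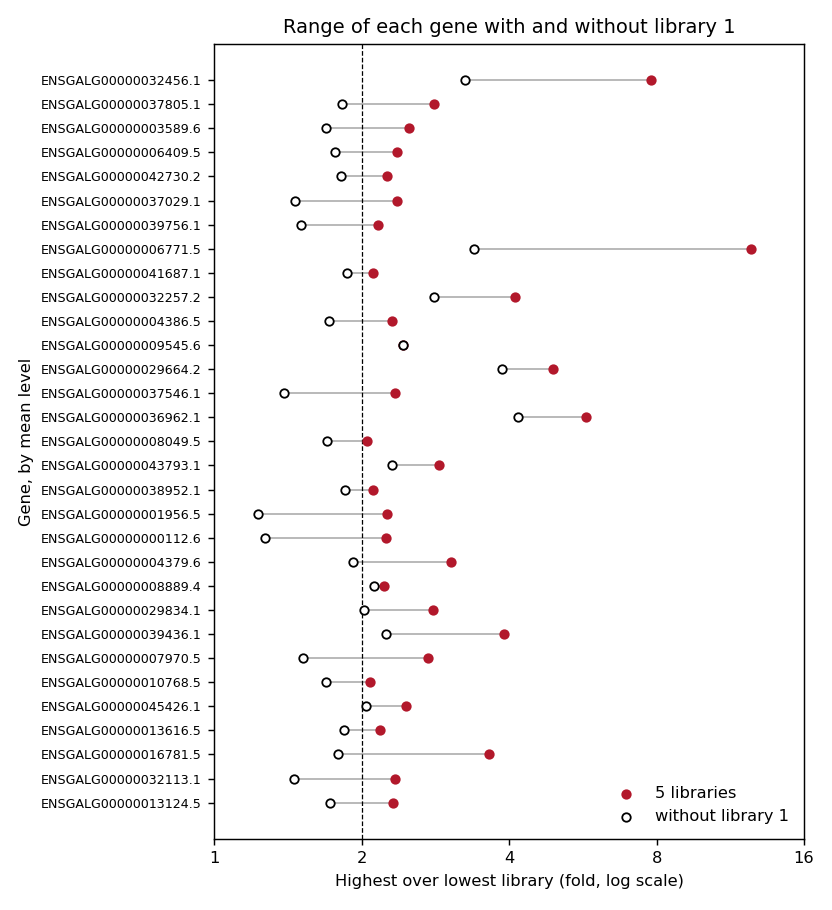
For each of the 31 genes, listed by mean level, filled points give the ratio of the highest to the lowest of 5 libraries and open points give it without library 1, on a log axis. The dashed line marks 2-fold. Without library 1, 20 genes lie to the left of the line and 11 to the right.

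Among themselves, leaving ENSGALG00000032456.1 aside, the 30 genes had a median pairwise r of 0.888 over 5 libraries and a lowest of 0.653, and 190 of the 435 pairs (43.7%) reached 0.9. Without library 1 the median was 0.822 and the lowest 0.00583. All pairs share the same 5 libraries, and each gene had been selected against 1 common profile. A high r to that profile in both genes of a pair keeps their own r from being low. The median, the lowest value and the share of pairs over 5 libraries therefore follow largely from the rule. No share of pairs among all genes that met the level and range limits is given beside them. The genes most like ENSGALG00000032456.1 after ENSGALG00000006771.5 were ENSGALG00000037546.1 with an r of 0.981, ENSGALG00000042730.2 with 0.977, ENSGALG00000045426.1 with 0.975 and ENSGALG00000037805.1 with 0.963. These genes followed its shape over smaller ranges, since ENSGALG00000037546.1 spanned 2.34-fold and ENSGALG00000045426.1 2.46-fold.

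The limits cut through a continuous run of genes. Just inside the correlation limit were ENSGALG00000037029.1 at 0.9001, ENSGALG00000009545.6 at 0.9009 and ENSGALG00000013124.5 at 0.9033. Just outside it, among genes within the other limits, were ENSGALG00000014708.6 at 0.892, ENSGALG00000036932.1 at 0.8896 and ENSGALG00000016915.5 at 0.8886. The smallest range inside was 2.05-fold, in ENSGALG00000008049.5, and the largest outside, among genes within the other limits, was 1.995-fold, in ENSGALG00000028294.3. The lowest mean level inside was 20.3 CPM, in ENSGALG00000013124.5, and the highest outside, among genes within the other limits, was 18.4 CPM, in ENSGALG00000006965.6. A further 140 genes of at least 20 CPM reached the correlation limit with a range under 2-fold, and 107 genes under 20 CPM reached the correlation and range limits. The number 31 is therefore set by where the limits were placed.

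The 4 genes with the opposite profile were ENSGALG00000011740.4, ENSGALG00000004191.4, ENSGALG00000008836.6 and ENSGALG00000012357.4. ENSGALG00000011740.4 had 42.7 CPM in library 1, 82.6 in library 2, 148 in library 6, 82.8 in library 9 and 79.7 in library 10. Library 6 was high, library 1 was low and the other 3 were nearly level. ENSGALG00000004191.4 had 41.2 CPM in library 1, 78.9 in library 2, 85.9 in library 6, 84.1 in library 9 and 61.0 in library 10. All 4 genes were lowest in library 1, for which no share of the 468 genes is given. Of the 4, 3 were highest in library 6, the highest library of 11.5% of the 468 genes. These orders follow largely from the limit on r. The most negative r were -0.978 for ENSGALG00000012357.4 and -0.962 for ENSGALG00000004191.4. Summed, the 4 genes had 133 CPM in library 1 and 332 in library 6. Without library 1 their ranges were 1.85-fold for ENSGALG00000011740.4, 1.64-fold for ENSGALG00000008836.6, 1.44-fold for ENSGALG00000012357.4 and 1.41-fold for ENSGALG00000004191.4. All 4 thus fell under the 2-fold limit without that library.

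By the same rule, 15 genes followed ENSGALG00000023622.3, and 0 of them were among the 31. The r of ENSGALG00000023622.3 to ENSGALG00000032456.1 was -0.78, so no gene could meet the correlation limit for both. The overlap of 0 is therefore fixed by the rule and does not show that the sets are distinct. Their summed level was 1004 CPM in library 1, 890.4 in library 2, 3283 in library 6, 1970 in library 9 and 1697 in library 10. All 15 were highest in library 6, where 23 of the 31 genes were lowest, against 11.5% of the 468 genes highest there. ENSGALG00000023622.3 was itself highest in library 6, at 774 CPM, so the order of the 15 follows largely from the rule. Their sum was lowest in library 2 and not in library 1. In this sum library 10 stood above library 2, as it did in that of the 31. The 4 mitochondrially encoded transcripts together had 90211 CPM in library 1 and 96346 in library 6, and they did not run one way. ENSGALG00000032079.1 was highest in library 1, at 12683 CPM, and lowest in library 6, at 7175 CPM. ENSGALG00000035334.1 was lowest in library 1, at 33326 CPM, and highest in library 6, at 42889 CPM. ENSGALG00000041091.1 was also highest in library 6, at 30454 CPM, and ENSGALG00000032142.1 was highest in library 9, at 21345 CPM.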

How the data were processed

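Per the series design text and the submitters' processing notes, cutadapt trimming was followed by STAR alignment to gene 3′ ends (galGal5), removal of duplicates by molecular tag, HTSeq counting and a correction of counts for saturation. Tool versions: not given in the sources used here. Raw counts per gene were deposited and are the basis of every level. The normalised values, a signal, were made by the authors by dividing counts by 1 size factor per library (0.818 to 1.33). These factors were lower than DESeq2 factors computed on these 5 libraries alone (0.841 to 1.37), by nearly the same proportion in every library. They served as an alternative scaling, but are not a check separate from the DESeq2 factors. Of the per-sample columns, 0 lay outside the 5 libraries.

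CPM is the count divided by the library total. A count of 0 allows 3 counts, or 0.551 CPM to 0.870 CPM by library, and none of the 31 genes had a count of 0. Counting error is the inverse square root of the count, and it takes no account of the correction for saturation. BCVs were fitted on all genes with edgeR 4.0.16 in R 4.3.3 (TMM factors, filterByExpr, intercept only). Each is the value of a gene drawn toward that of other genes. DESeq2 1.42.0 was an alternative. The rule and the BCV fit were also run on simulated data. There the following genes changed as steeply as ENSGALG00000032456.1, and the BCV was below the median of the 31. Most of the 31 genes changed less steeply, so no conclusion is drawn from that run. No test between groups was possible with 1 group.

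The genes, and the lists compared with them, were chosen with earlier results of these data known. Genes are named by rule: ENSGALG00000032456.1, the 8 of highest mean, the 6 of largest range, the 5 of highest r, the 3 nearest each side of the correlation limit, and the opposite genes. Those nearest the correlation limit were taken among genes within the other limits. Other genes were named after their values were seen. Cell type marker lists were not used, as the tables at hand pair no ID with a symbol.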

Additional observations from a re-analysis of the deposited data

Results flagged for a closer look

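In 1 of 39 results examined, 1 library lay far from the other 4 by Dixon's gap test on the log2 scale. For ENSGALG00000001956.5 the gap took up 0.747 of the whole range, over the limit of 0.71. It stood at 55.1 CPM in library 1, and between 24.5 CPM and 30.1 CPM in the others. On the CPM scale 3 of the 31 genes passed the limit, with gaps of 0.817 for ENSGALG00000001956.5, 0.793 for ENSGALG00000006771.5 and 0.783 for ENSGALG00000000112.6, each for library 1. Chance alone marks about 1 in 20 groups that were not chosen by their values. The 31 genes were chosen by these same values for a shared profile, so that rate does not apply to them. Their gaps are not independent and are given as a description, with no share of the 468 genes that met the level and range limits beside them.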

How the results depend on the processing

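The number of genes, 31, was 29 with TMM factors, 23 with DESeq2 or the deposited size factors, 27 after thinning to equal totals, 31 with an offset of 5 and 32 with the set left out of the totals. It was 138 with no minimum level, 9 at an r of 0.95 and 47 with Spearman's rho. Without single libraries it was 15 to 71, at 15 without library 1 (7 of them among the 31) and 71 without library 9. The number of opposite genes, 4, was 5 with TMM factors, 9 with DESeq2 factors, 10 with deposited factors, 39 with no minimum level, 2 at the stricter limit, 7 with Spearman's rho, 2 after thinning, and 4 to 24 without single libraries (16 without library 2, 24 without library 10). Without library 1 the opposite genes also numbered 4, but they were other genes, since each of the named 4 then spanned less than 2-fold. The cause of these shifts was not tested, beyond the looser or stricter limits themselves. The mean of ENSGALG00000032456.1 was 2574 CPM to 4818 CPM and the summed level 5693 CPM to 8838 CPM without single libraries. Without library 1, the median BCV of the 31 was 0.199. Chosen after seeing the data were robust shrinkage, deposited factors and totals without the set. No paired analysis was possible because all libraries share 1 group.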
